A study of Mus musculus with 24 samples.

Results

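Mouse embryonic stem cells lacking MLL1 and MLL2 were compared with cells lacking MLL2 alone after 4 days of differentiation with retinoic acid. Day 4 double-KO cells (Mll1-KO and Mll2-KO, 4-OHT treated, 3 libraries) were set against day 4 Mll2-KO cells (4-OHT treated, 3 libraries), and these 6 of the 24 libraries of the series were chosen by the genotype and day in their labels. All genotypes came from a line in which Mll2 can be deleted by an inducible Cre. Mll1 had been deleted in that line with CRISPR and a pair of guides, and Mll2 was then deleted by 48 h of 800 nM 4-hydroxytamoxifen (4-OHT), the drug that switches on the Cre. Both groups therefore carried the Mll2 deletion and had the drug, and both were grown for 4 days in medium with 10% serum and 1 µM retinoic acid and no LIF. Day 4 Mll1-KO cells and day 4 WT cells, both untreated with 4-OHT, and the same double-KO and Mll2-KO genotypes as stem cells at day 0, all with 3 libraries each, served for side comparisons. The number of clones per genotype was not given in the labels, and neither was whether libraries of a group came from separate cultures, so p-values measure only the spread between these libraries.

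MLL1 and MLL2, encoded by Kmt2a and Kmt2b, are related methyltransferases that place methyl groups on lysine 4 of histone H3, a mark of active promoters and enhancers. They share the core subunits WDR5, RBBP5, ASH2L and DPY30 with the other enzymes of the COMPASS family, and both also bind menin. MLL1 is best known for keeping Hox genes active in the embryo and in blood, and MLL2 for methylating promoters, including those held by Polycomb, in stem cells. Retinoic acid binds nuclear receptors, switches on Hox genes from the anterior end of their clusters, and drives stem cells in serum out of pluripotency into a mixture of lineages.

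The 3 double-KO libraries held 14674698, 10748425 and 14278092 reads in genes and the 3 Mll2-KO libraries 17138558, 16280846 and 15391248, so the double-KO libraries were the shallower ones without overlap. Correlation of log2 levels with the other libraries averaged 0.9893 to 0.9896 within the double-KO, 0.9915 to 0.9919 within the Mll2-KO, and 0.978 to 0.980 across the 2 groups. The label of differentiated cells was checked with Pou5f1, the core pluripotency factor, which stood at 29200 ± 626 normalized counts in double-KO and 30700 ± 1450 in Mll2-KO stem cells at day 0, and at 939 ± 18.2 and 2370 ± 195 at day 4 (SD, n = 3). Levels throughout are normalized counts, which are not divided by gene length and are compared only within a gene. Differences are double-KO minus Mll2-KO on the log2(normalized count + 1) scale, from limma with Benjamini-Hochberg adjustment over all genes tested, and a gene is called at an adjusted p below 0.05. In bulk RNA, fewer cells of a type and less RNA per cell cannot be told apart.

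Kmt2a reads showed the Mll1 deletion in every double-KO library. Kmt2a (chromosome 9, 44803355 to 44881296) had 88.4, 132 and 92.4 normalized counts in the double-KO libraries, against 2360, 2440 and 2290 in the Mll2-KO libraries. The groups were far apart, with a log2 difference of -4.51 ± 0.13 (SE, limma adjusted p = 1.8e-18), 22.8-fold lower in the double-KO. Kmt2b (chromosome 7, 30568858 to 30588726) had 2390, 2100 and 2310 normalized counts in double-KO and 2360, 2720 and 2430 in Mll2-KO libraries. These groups overlapped, the call of lower Kmt2b (-0.14, limma adjusted p = 0.036) was lost under several alternatives, and a count over the whole gene checks nothing about a deletion of single exons. Of the other H3K4 methyltransferase genes, Kmt2c fell to 2430, 2400 and 2550 in the double-KO, against 3460, 3800 and 3290 in Mll2-KO (-0.51 ± 0.05, limma adjusted p = 3.5e-09), while Kmt2d, Setd1a and Setd1b were not called (-0.05, 0.02 and -0.07). Among 14 genes of shared or paralogue-specific COMPASS subunits, 4 fell (Ash2l -0.20, Dpy30 -0.22, Wdr5 -0.15 and Wdr82 -0.13) and Cxxc1 rose by 0.17. The calls of Dpy30 and Cxxc1 were lost under some alternatives, and the menin gene Men1 (0.05) and Rbbp5 (-0.08) were not called. Over all tested genes 40.3% were called, so the share of subunits called was no larger than that of the whole table.

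Across the transcriptome, 5770 of 14303 tested genes were called, 2780 higher (19.4%) and 2990 lower (20.9%) in the double-KO, which is 40.3% in all. The 3 and 3 libraries did not overlap for 6983 genes (48.8%). Most differences were small: 269 genes rose and 329 fell at least 2-fold, and the median over all tested genes was -0.0083. With such a background, a list in which 40.3% of members were called would be no different from the whole table, and the lists below are given with their counts in each direction.

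The large rises were in genes of several tissues. Xist (chromosome X, 103460366 to 103483254), the noncoding RNA that coats an inactive X chromosome, had 386, 494 and 484 normalized counts in double-KO libraries, against 67.6, 66.2 and 67.6 in Mll2-KO libraries (2.73 ± 0.18, limma adjusted p = 7.2e-12). Upk3b (chromosome 5, 136038496 to 136046487), a uroplakin gene of mesothelium, had 59.3, 76.7 and 89.0 in double-KO and 13.7, 25.5 and 8.73 in Mll2-KO libraries (2.27 ± 0.25, limma adjusted p = 5.2e-08), and Msln, which encodes the mesothelial surface protein mesothelin, had 103, 99.6 and 75.3 against 22.5, 16.3 and 29.5 (2.00 ± 0.29). In each of these 3 genes every double-KO library lay above every Mll2-KO library. Secreted regulators were also among the rises: Dkk2, a Wnt modulator, had 63.8, 70.5 and 43.3 in double-KO and 16.7, 4.08 and 12.0 in Mll2-KO libraries (2.49), and Inhba, the activin A subunit gene, had 62.7, 85.8 and 59.3 in double-KO and 16.7, 12.2 and 15.3 in Mll2-KO libraries (2.15). Actg2, a smooth muscle actin gene, had 220, 261 and 236 in double-KO and 73.5, 39.7 and 86.2 in Mll2-KO libraries (1.90), and the platelet chemokine gene Ppbp 456, 500 and 489 in double-KO and 146, 80.5 and 159 in Mll2-KO libraries (1.96). The further rises were in Entpd3, a nucleotide-hydrolysing surface enzyme (2.13), Tmprss11f, a transmembrane serine protease gene (2.08), Lamb3, a laminin chain of epithelial basement membrane (1.81), Ifit1, an interferon-induced gene (1.81), Naaladl2 (1.78) and Pi15, a protease inhibitor gene (1.73). Lamb3 overlaps G0s2 and Hsd11b1 on the other strand, Inhba overlaps the antisense gene B230303A05Rik, and whether counting used strand was not stated, so the source of reads in the overlaps is uncertain.

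The large falls besides Kmt2a included imprinted RNAs and endoderm genes. They are given here, as are the rises above, for called genes whose libraries did not overlap and whose higher group mean reached 50, without unnamed gene models such as Gm2274 (-6.95). H19 (chromosome 7, 142575529 to 142578143), a maternally expressed noncoding RNA, had 768, 687 and 703 normalized counts in double-KO libraries, against 8700, 8950 and 8020 in Mll2-KO libraries (-3.57 ± 0.05, limma adjusted p = 5e-25), 11.9-fold lower. Rbp4 (chromosome 19, 38116629 to 38125281), the retinol carrier made by visceral endoderm and liver, had 83.9, 78.2 and 93.5 in double-KO and 319, 366 and 313 in Mll2-KO libraries (-1.95 ± 0.09, limma adjusted p = 7.6e-15). Neither gene showed any overlap between groups. Sfrp5, a secreted Wnt antagonist, had 234, 179 and 227 in double-KO and 637, 789 and 737 in Mll2-KO libraries (-1.76), and Ntrk2, the BDNF receptor gene, 32.5, 39.9 and 47.9 in double-KO and 124, 135 and 134 in Mll2-KO libraries (-1.70). Havcr1, a phosphatidylserine receptor gene, had 13.4, 12.3 and 7.98 in double-KO and 54.9, 71.3 and 50.2 in Mll2-KO libraries (-2.30). The other large falls were in Meg3 (-2.02) and Rian (-1.83), Afp (-2.01), Bicd1, a dynein adaptor gene (-1.87), Hoxa10 (-1.83), Ctsh, a cathepsin gene (-1.76), Fmr1nb on the X chromosome (-1.70) and Amn, an endocytic co-receptor of visceral endoderm (-1.65).

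**Figure D1:**
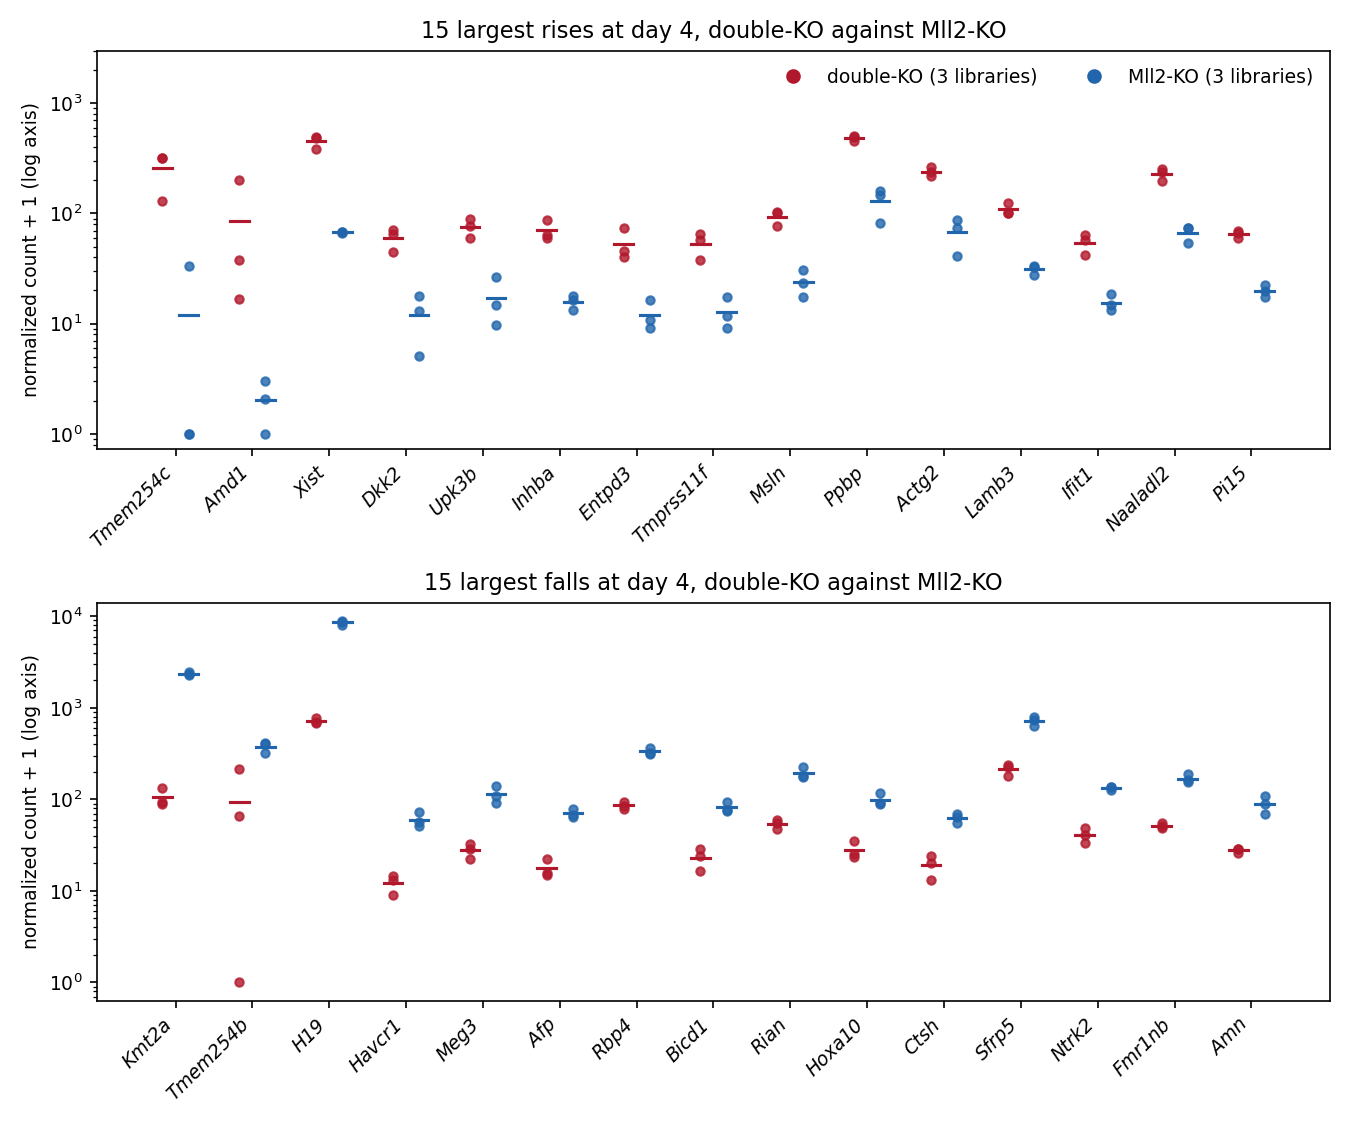
Normalized count + 1 (log axis) of the 15 largest rises (upper panel) and 15 largest falls (lower panel) at day 4 among called and named genes whose libraries did not overlap and whose higher group mean reached 50, with a point per library and a line at the group mean, double-KO in red left of Mll2-KO in blue. The 3 red points lie apart from the 3 blue points in all 30 genes, and Tmem254b, Tmem254c and Amd1 show the widest spread within a group.

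A few of the most extreme values lie in genes with near-identical copies in the genome, where read assignment is uncertain. Tmem254c had 320, 316 and 130 normalized counts in double-KO and 0, 32.6 and 0 in Mll2-KO libraries, whereas its copy Tmem254b had 0, 64.4 and 212 in double-KO and 407, 321 and 397 in Mll2-KO libraries. The copies thus moved in opposite directions (6.20 and -3.96), and both calls were lost with DESeq2. Amd1, a polyamine synthesis gene with processed copies, had 15.7, 202 and 36.5 in double-KO and 0, 2.04 and 1.09 in Mll2-KO libraries.

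Hox genes did not move as a block, and in the HoxA cluster the genes from Hoxa6 to Hoxa13 that were tested fell while Hoxa4 and Hoxa5 rose. Hoxa9 (chromosome 6, 52223100 to 52231089), a posterior patterning gene and a well-known MLL1 target in blood, had 6.72, 7.67 and 13.7 normalized counts in double-KO libraries, against 47.0, 56.1 and 39.3 in Mll2-KO libraries (-2.27 ± 0.23, limma adjusted p = 2.2e-08). Its neighbour Hoxa10 (chromosome 6, 52231197 to 52240854) had 22.4, 24.5 and 34.2 in double-KO and 88.2, 115 and 90.6 in Mll2-KO libraries (-1.83 ± 0.24, limma adjusted p = 8e-07). Hoxa7, a middle gene of the cluster, had 38.1, 27.6 and 38.8 in double-KO and 81.3, 87.6 and 72.0 in Mll2-KO libraries (-1.19). The groups did not overlap in any of the 3. Hoxa13, the last gene of the cluster, had 4.48, 6.13 and 17.1 in double-KO and 28.4, 43.8 and 19.6 in Mll2-KO libraries (-1.76, limma adjusted p = 0.00029), and Hoxa6 fell by 0.68. At the anterior end Hoxa4 (chromosome 6, 52189671 to 52191753) moved the other way, with 290, 337 and 306 in double-KO and 123, 139 and 172 in Mll2-KO libraries (1.11 ± 0.11, limma adjusted p = 1.5e-08). Hoxa5 rose by 0.17, and Hoxa2 (0.18) and Hoxa3 (0.12) were not called. Of the HoxA genes described here, 2 rose and 5 fell.

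The promoter of Hoxa9 is shown because this gene fell furthest in the cluster, and that of Upk3b because it rose among the mesothelial genes and is poor in CG. Both are RefSeq windows on GRCm38.p6, from 250 bases before to 50 after the annotated start, printed 5′ to 3′ on the strand of the gene, with each CG in capitals. The Hoxa9 window is chr6:52227321-52227620 on the minus strand and holds 4 CG, and the Upk3b window is chr5:136038246-136038545 on the plus strand and holds 2 CG. The Hoxa9 window lies inside the range given above for this gene, not at the 52231089 end where that range begins on the minus strand. It therefore describes the RefSeq start and not the outermost annotated one.
Hoxa9: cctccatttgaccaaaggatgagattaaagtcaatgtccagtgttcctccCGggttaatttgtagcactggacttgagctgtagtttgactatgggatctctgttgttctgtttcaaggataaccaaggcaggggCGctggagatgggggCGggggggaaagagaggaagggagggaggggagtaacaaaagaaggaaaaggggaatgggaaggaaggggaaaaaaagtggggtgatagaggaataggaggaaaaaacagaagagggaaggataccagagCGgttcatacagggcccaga
Upk3b: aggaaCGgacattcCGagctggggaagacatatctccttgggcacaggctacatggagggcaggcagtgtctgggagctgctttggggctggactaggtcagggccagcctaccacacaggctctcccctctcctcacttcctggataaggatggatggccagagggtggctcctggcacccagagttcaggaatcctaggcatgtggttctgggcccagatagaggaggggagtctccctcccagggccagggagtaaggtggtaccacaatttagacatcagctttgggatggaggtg
The observed CG count was 0.28 of that predicted from base composition for Hoxa9 and 0.08 for Upk3b, beside a median of 0.77 over 8986 tested genes with a single window. Genes that rose at least 2-fold had a median of 0.38 (151 windows) and those that fell at least 2-fold 0.58 (212 windows). A ratio of at least 0.6 was found in 29.8% and 49.1% of these, beside 73.6% of all, and the medians of all genes that rose (0.76) or fell (0.77) were near that of the table. No test was run on these shares.

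The other Hox clusters held changes in both directions or falls alone. In HoxC, Hoxc5 had 619, 610 and 598 normalized counts in double-KO libraries, against 228, 220 and 264 in Mll2-KO libraries (1.36 ± 0.08, limma adjusted p = 6.8e-13), and Hoxc6 had 31.3, 29.1 and 37.6 in double-KO and 61.7, 58.1 and 61.1 in Mll2-KO libraries (-0.87). Hoxc4 (0.31), Hoxc8 (0.36) and Hoxc13 (0.42) also rose and Hoxc10 fell by 0.70, which makes 4 of 7 higher and 2 lower. The annotated range of Hoxc5 runs over Hoxc6, Hoxc8, Hoxc9 and Hoxc10 on the same strand, and that of Hoxa3 over Hoxa4, Hoxa5 and Hoxa6, so the assignment of shared reads is uncertain there. In HoxB, 3 of 10 rose (Hoxb2 0.17, Hoxb5 0.39 and Hoxb9 0.39) and 3 fell (Hoxb1 -0.25, Hoxb7 -0.57 and Hoxb13 -0.29), although edgeR called 1 fall and DESeq2 0. In HoxD, Hoxd9 (-0.33) and Hoxd13 (-0.79) fell and the other 5 were not called (2 rose at an unadjusted p below 0.05, and 0 by edgeR or DESeq2). The calls of Hoxb1, Hoxb2, Hoxb7, Hoxb13, Hoxc4, Hoxd9 and Hoxd13 were lost under at least 1 alternative setting. Of 9 genes of Hox partners, 5 rose, among them Meis2, a cofactor that binds DNA with Hox proteins (4730, 4570 and 4860 in double-KO, 3280, 3320 and 3340 in Mll2-KO libraries, 0.51), and Cdx1, a caudal-type activator of Hox genes, fell to 189, 153 and 162 in double-KO, against 297, 335 and 306 in Mll2-KO libraries (-0.89).

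**Figure D2:**
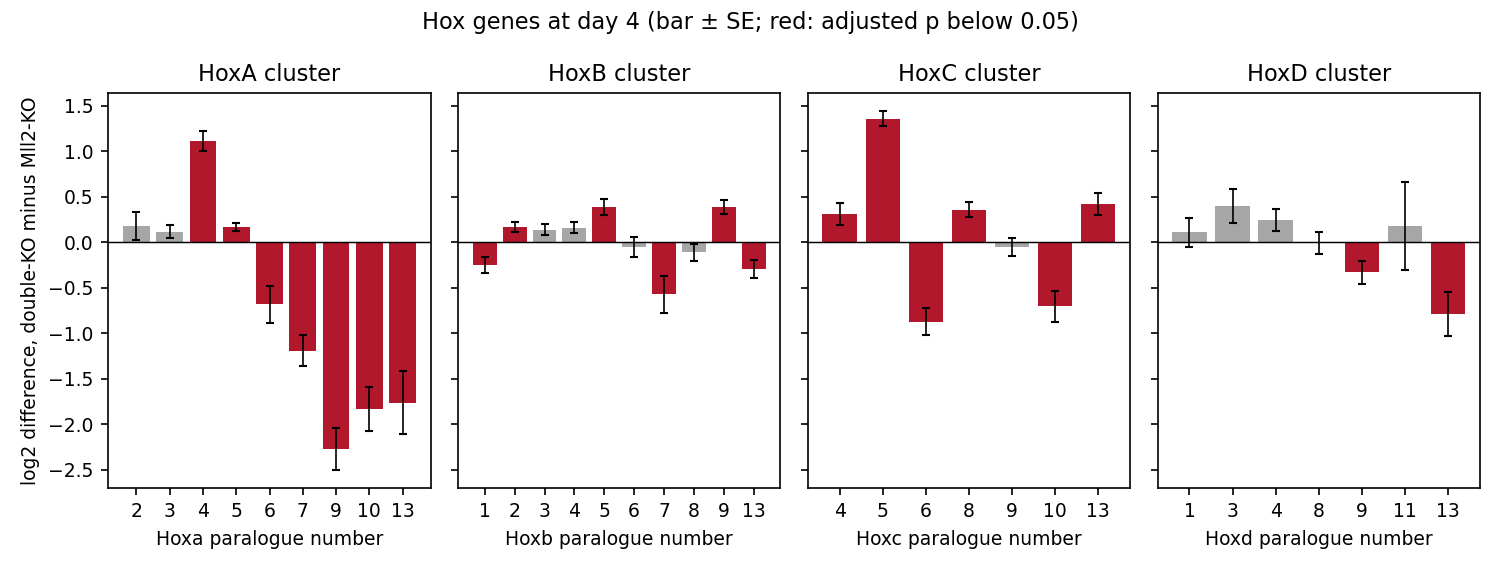
Log2 difference, double-KO minus Mll2-KO at day 4, for Hox genes by paralogue number in the 4 clusters, with bars for the estimate and error bars for its SE; red bars are called by limma. In HoxA the bars run from 1.11 at Hoxa4 to -2.27 at Hoxa9, and in the other clusters the called bars lie between 1.36 and -0.87.

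Genes known as targets of MLL1 fusion proteins in leukaemia went both ways, with 5 of 14 higher and 6 lower. Besides Hoxa9 and Hoxa10, Mef2c, a transcription factor of muscle and blood, fell to 5.60, 9.20 and 6.84 normalized counts in double-KO, against 30.4, 24.5 and 32.7 in Mll2-KO libraries (-1.89), and Eya1, a phosphatase cofactor of homeodomain proteins, had 31.3, 30.7 and 27.4 in double-KO and 63.7, 67.3 and 62.2 in Mll2-KO libraries (-1.09). Cdk6, a G1 kinase gene, rose to 1310, 1320 and 1360 in double-KO, against 769, 702 and 831 in Mll2-KO libraries (0.80), and Bcl2 (0.59) and Meis1 (0.14) rose as well.

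Imprinted genes rose in 14 and fell in 7 of 30 cases, with the 3 deepest falls in maternally expressed noncoding RNAs. Meg3 and Rian lie next to each other in the Dlk1 domain of chromosome 12. Meg3 (109541001 to 109571726) had 31.3, 21.5 and 27.4 normalized counts in double-KO libraries, against 91.1, 139 and 107 in Mll2-KO libraries (-2.02 ± 0.26, limma adjusted p = 7.8e-07), and Rian (109603940 to 109661716) had 47.0, 58.3 and 53.6 in double-KO and 175, 222 and 178 in Mll2-KO libraries (-1.83 ± 0.19). Their paternally expressed neighbour Dlk1, a Notch-related transmembrane gene, rose by 0.38. The neighbour of H19, the growth factor gene Igf2 (chromosome 7, 142650766 to 142666816), had 29800, 29300 and 29800 in double-KO and 20900, 20000 and 20100 in Mll2-KO libraries (0.54 ± 0.04, limma adjusted p = 3.1e-11). In both domains the maternal RNA was thus lower and the paternal gene higher in the double-KO, without overlap between the groups for H19, Igf2, Meg3 and Rian. Slc22a18 (0.94), Gnas (0.79), Cdkn1c (0.75), Nnat (0.67) and Peg10 (0.55) were among the other rises, and Ascl2 (-1.07) and Peg13 (-0.56) among the other falls, with Ascl2 lost under some alternatives.

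The mean of Xist was highest in the day 4 double-KO among the 8 groups of the series. It averaged 454 ± 59.4 normalized counts in day 4 double-KO, 67.2 ± 0.805 in Mll2-KO, 53.1 ± 8.87 in Mll1-KO and 19.8 ± 4.68 in WT cells (SD, n = 3), and 31.3 ± 5.04 in double-KO and 4.99 ± 3.28 in Mll2-KO stem cells at day 0. Tsix, its antisense repressor on the other strand, was looked at after the values of Xist were seen and averaged 15.8 ± 1.81 in day 4 double-KO and 44.4 ± 8.14 in day 4 Mll2-KO cells (-1.42, limma adjusted p = 0.00097). Reads of the pair cannot be told apart if counting ignored strand, which was not stated. Over 506 tested genes of the X chromosome the median difference was -0.044, with 17.0% higher and 25.3% lower, beside 19.4% and 20.9% over all genes. Medians of the chromosomes ran from -0.047 to 0.035.

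Pluripotency genes were lower in the double-KO than in the Mll2-KO. Of 22 genes of naive and core pluripotency, 17 fell and 2 rose, with a median of -0.66. Pou5f1 had 953, 946 and 918 normalized counts in double-KO and 2360, 2570 and 2180 in Mll2-KO libraries (-1.33 ± 0.09, limma adjusted p = 1.9e-11). Tfcp2l1, a transcription factor of the naive state, had 585, 578 and 654 in double-KO and 1460, 1520 and 1400 in Mll2-KO libraries (-1.27), and Sox2, the partner of Pou5f1, 149, 173 and 180 in double-KO and 379, 392 and 332 in Mll2-KO libraries (-1.13). None of these 3 overlapped between the groups. Nanog (-0.72), Zfp42 (-0.86), Esrrb (-0.78) and Klf4 (-0.57) fell too, whereas Dppa4, a chromatin protein gene of stem cells, rose to 976, 947 and 866 in double-KO, against 633, 668 and 627 in Mll2-KO libraries (0.53). Formative and primed genes fell in 10 and rose in 3 of 14 cases (median -0.54), with Sox3 (-1.02), Fgf5 (-0.74) and the de novo methyltransferase Dnmt3b (-0.59) lower. Lef1, a transcription factor of the Wnt pathway in the same list, had 275, 297 and 294 in double-KO and 132, 118 and 157 in Mll2-KO libraries (1.09).

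Endoderm genes were lower in the double-KO than in the Mll2-KO. Against WT the mean log2 levels of the lists differed. Endoderm factors stood at 7.90 to 7.98 in double-KO and 7.96 to 8.09 in WT libraries. Parietal endoderm genes stood at 12.78 to 12.81 in double-KO and 12.79 to 12.84 in WT, and visceral endoderm genes at 6.94 to 7.12 and 7.93 to 8.23. Of 16 endoderm transcription factors tested, 11 fell (median -0.58), and of 19 visceral endoderm genes 15 fell (median -0.75). In both lists 0 rose by limma, also at an unadjusted p below 0.05, and 0 by edgeR or DESeq2. Foxq1 (chromosome 13, 31556134 to 31560976), a forkhead factor, had 1060, 1010 and 1110 normalized counts in double-KO and 2770, 2880 and 2760 in Mll2-KO libraries (-1.40 ± 0.06, limma adjusted p = 1.7e-15). Eomes, a T-box factor of early endoderm and trophoblast, had 19.0, 23.0 and 24.0 in double-KO and 60.8, 57.1 and 56.7 in Mll2-KO libraries (-1.37), and Sox17 (-0.73), Gata4 (-0.71), Hnf4a (-0.62) and Foxa2 (-0.55) fell while Gata6 was not called. Among the products of visceral endoderm, Afp, the fetal serum protein, had 21.3, 13.8 and 14.8 in double-KO and 78.4, 66.2 and 63.3 in Mll2-KO libraries (-2.01), and Apoa1, an apolipoprotein, 73.9, 70.5 and 52.5 in double-KO and 204, 200 and 204 in Mll2-KO libraries (-1.63). Apob (-1.33), the receptors Cubn (-1.18) and Lrp2 (-0.73) and their adaptor Dab2 (-0.73) followed. Genes of parietal endoderm, which secretes a thick basement membrane, fell in 13 of 17 cases and rose in 1 (median -0.63). Srgn, a proteoglycan core gene, had 2210, 2480 and 2350 in double-KO and 4760, 5030 and 5160 in Mll2-KO libraries (-1.09), and Col4a1 (-0.85), Col4a2 (-0.79), Lama1 (-0.77) and Sparc (-0.63) fell, while Thbd, the thrombomodulin gene, rose to 151, 140 and 138 in double-KO, against 54.9, 52.0 and 63.3 in Mll2-KO libraries (1.32).

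Genes of smooth muscle and matrix, and some of mesothelium, moved the other way. Of 17 mesothelial and smooth muscle genes tested, 12 rose and 1 fell, with a median of 0.87, and the mean log2 level of the members was 8.62, 8.57 and 8.60 in double-KO and 7.94, 7.83 and 8.00 in Mll2-KO libraries. Acta2 (chromosome 19, 34241090 to 34255590), the smooth muscle actin gene, had 32900, 31700 and 27800 normalized counts in double-KO and 16800, 14300 and 18700 in Mll2-KO libraries (0.90 ± 0.08, limma adjusted p = 5.1e-09). Cnn1, which encodes calponin, had 2070, 2030 and 1770 in double-KO and 1010, 816 and 1110 in Mll2-KO libraries (1.01). The groups did not overlap in either gene, and Tagln (0.76), Myl9 (0.70) and Postn (1.04) rose too. Tcf21, a transcription factor of epicardial mesothelium, was the member that fell, with 0, 0 and 1.14 in double-KO and 4.90, 3.06 and 7.64 in Mll2-KO libraries. The mesothelial factor Wt1 (0.01) was not called, and neither were Upk1b (0.78), Bnc1 (0.14) and Col1a2 (-0.17). Of 16 collagen genes other than Col4a1 and Col4a2, 13 rose and 2 fell (median 0.58), where Col1a1, Col1a2 and Col3a1 are members of both lists. Col6a1, a chain of the beaded collagen VI, had 584, 586 and 552 in double-KO and 216, 232 and 195 in Mll2-KO libraries (1.42 ± 0.08, limma adjusted p = 2.4e-13), and Col4a6 (1.85), Col3a1 (0.98) and Col1a1 (0.93) rose, against falls in Col26a1 (-0.97) and Col9a2 (-0.89). Basement membrane collagen IV was thus split, with Col4a5 (0.60) and Col4a6 higher and Col4a1 and Col4a2 lower.

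Some epithelial genes rose as well, with 6 of 11 surface epithelium genes higher (median 0.40) and 0 lower by limma, edgeR or DESeq2 (1 at an unadjusted limma p below 0.05). The members Epcam (-0.08), Cldn7 (-0.05), Krt8 (0.07), Trp63 (0.59) and Tfap2a (-0.62) were not called. Cldn4, a tight junction claudin, had 3010, 3090 and 2860 normalized counts in double-KO and 1730, 1680 and 1740 in Mll2-KO libraries (0.80), and Krt19, a simple epithelial keratin, 4640, 4570 and 4400 in double-KO and 3190, 3210 and 3320 in Mll2-KO libraries (0.49). Krt7, a keratin of trophoblast and other simple epithelia, had 1140, 1100 and 1150 in double-KO and 463, 460 and 512 in Mll2-KO libraries (1.24 ± 0.06, limma adjusted p = 6.2e-14). These 3 genes did not overlap between groups, and the epithelial cadherin gene Cdh1 rose by 0.40. Krt19 is also a member of the mesothelial and smooth muscle list, and Krt7 belongs to the trophectoderm list and not to that of surface epithelium. Among 10 trophectoderm genes, 3 rose (Krt7, Krt18 0.16 and Gata3 0.16) and 3 fell (Ascl2 -1.07, Plet1 -0.85 and Tfap2c -0.51), and Cdx2 was not called.

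Mesoderm and neuron genes were mixed, while most called neural progenitor genes were lower. Of 19 mesoderm and cardiac genes, 4 rose and 6 fell (median -0.11). Actc1, the cardiac actin gene, had 606, 621 and 487 normalized counts in double-KO and 218, 183 and 204 in Mll2-KO libraries (1.49 ± 0.11, limma adjusted p = 1.4e-10), while the PDGF receptor gene Pdgfra (-0.72) and Meox1, a factor of somites (-0.96), fell. Tnnt2, the cardiac troponin T gene, was low in both groups, with 15.7, 26.1 and 13.7 in double-KO and 4.90, 4.08 and 4.36 in Mll2-KO libraries, and its call (1.79) was lost without the second double-KO library. Neural progenitor genes fell in 12 and rose in 1 of 19 cases (median -0.41). Sox1, the early neural factor, had 28.0, 18.4 and 21.7 in double-KO and 65.7, 76.4 and 61.1 in Mll2-KO libraries (-1.55), and Pax6 (-0.71), Pax3 (-0.75) and En1 (-1.05) fell, while the intermediate filament gene Nes rose to 5860, 5610 and 5420 in double-KO, against 3350, 2890 and 3600 in Mll2-KO libraries (0.78). Neuron genes rose in 4 and fell in 4 of 17 cases: Tubb3, the neuronal tubulin, had 382, 363 and 307 in double-KO and 188, 172 and 213 in Mll2-KO libraries (0.87), and Ina, a neuronal filament gene, 23.5, 19.9 and 18.2 in double-KO and 43.1, 47.9 and 42.6 in Mll2-KO libraries (-1.08). Blood and endothelial genes fell in 3 and rose in 1 of 11 cases, with Fli1 (-1.22), Runx1 (-0.74) and Pecam1 (-0.74) lower, and neural crest genes rose in 3 and fell in 2 of 11, with the endothelin receptor gene Ednrb at 23.5, 15.3 and 22.8 in double-KO and 52.9, 47.9 and 55.6 in Mll2-KO libraries (-1.32).

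**Figure D3:**
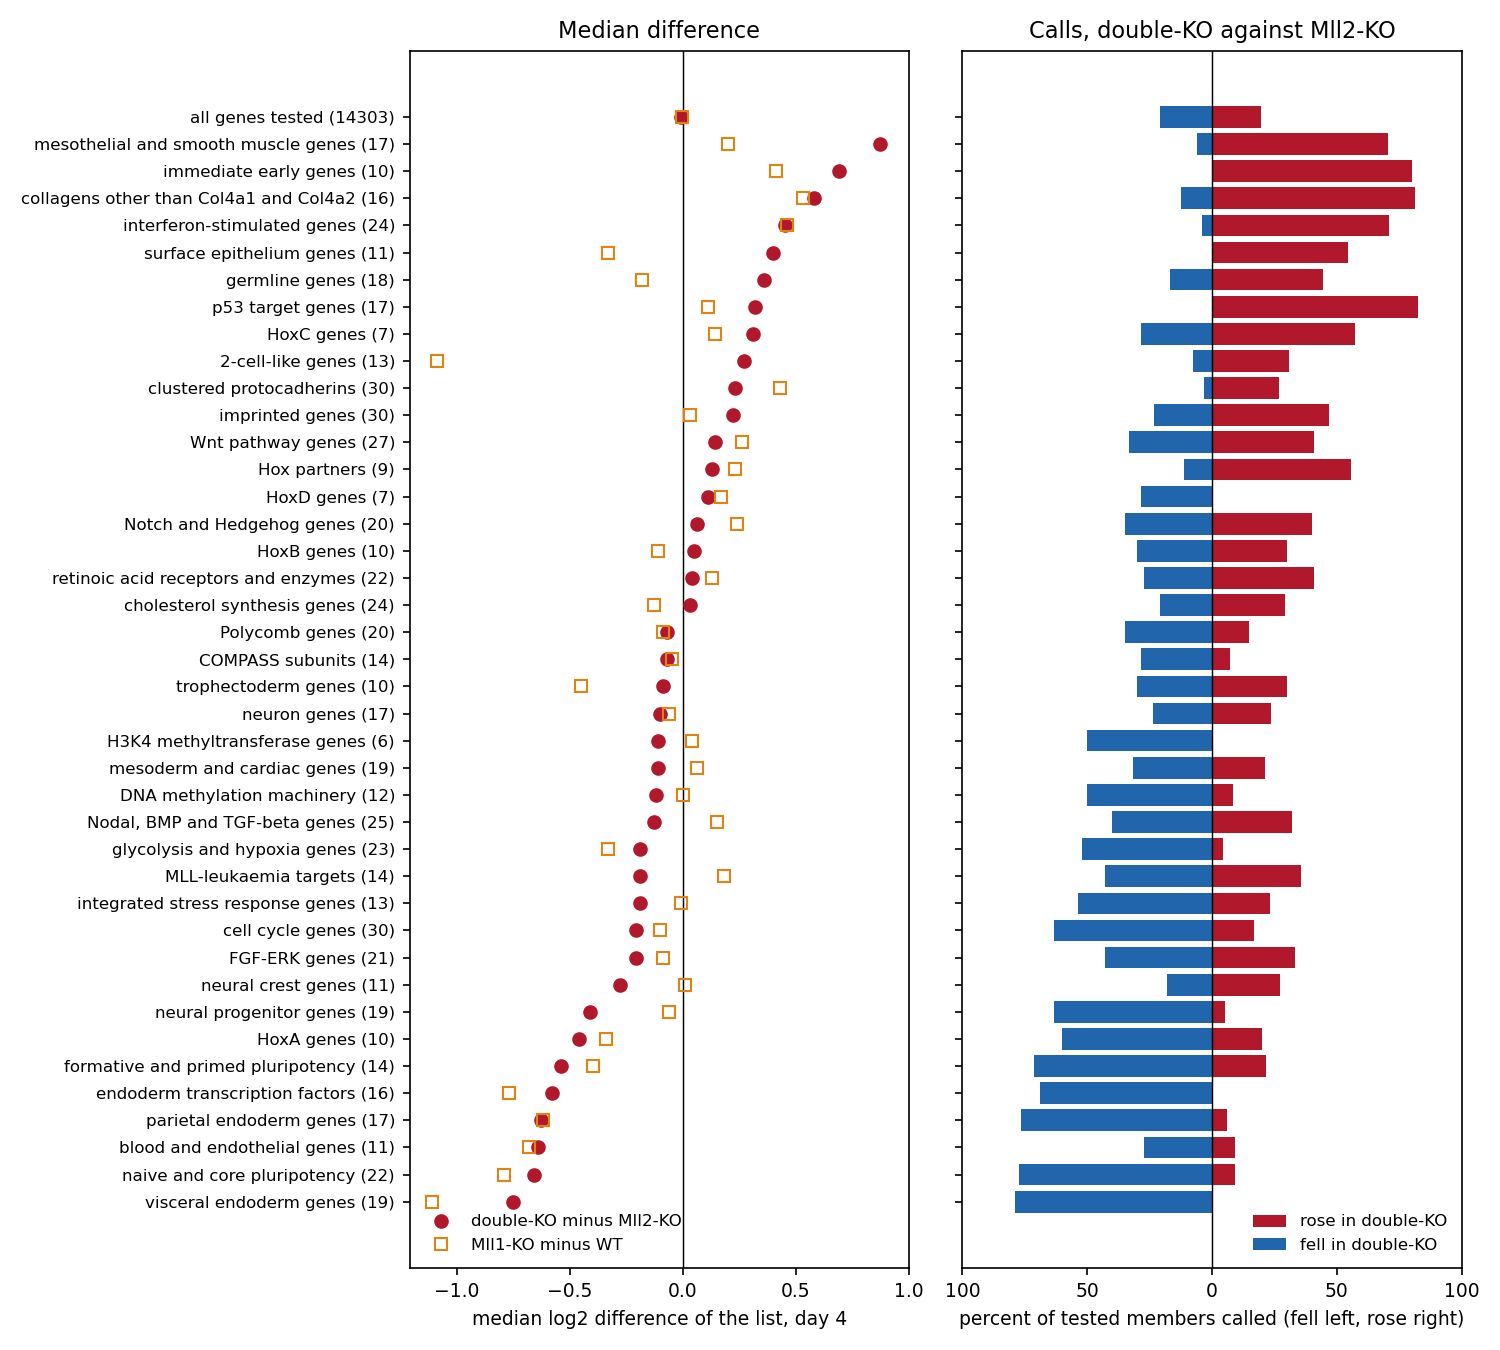
Left, median log2 difference of each gene list at day 4 for double-KO minus Mll2-KO (red circles) and Mll1-KO minus WT (open orange squares); right, percent of tested members that rose (red) or fell (blue) in the double-KO, with the number tested in brackets. Red medians run from 0.87 for mesothelial and smooth muscle genes to -0.75 for visceral endoderm genes, beside -0.0083 for all genes tested.

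Retinoic acid genes themselves were divided by role, with 9 of 22 higher and 6 lower (median 0.04). The receptor genes Rara, Rarb and Rarg were not called. Cyp26a1, the retinoic acid degrading enzyme induced by its own substrate, had 8590, 8220 and 9190 normalized counts in double-KO and 12600, 13300 and 12600 in Mll2-KO libraries (-0.57 ± 0.04, limma adjusted p = 6.4e-11), and the binding protein gene Crabp1 had 92.9, 72.1 and 91.2 in double-KO and 127, 157 and 142 in Mll2-KO libraries (-0.73). Stra8, a retinoic acid target of germ cells, rose to 1550, 1620 and 1630 in double-KO, against 895, 1010 and 911 in Mll2-KO libraries (0.77), and Nr2f1, an orphan receptor gene induced by retinoic acid, to 578, 583 and 596 in double-KO, against 443, 402 and 429 in Mll2-KO libraries (0.46).

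In the Wnt pathway 11 of 27 genes rose and 9 fell. The ligand gene Wnt6 had 852, 716 and 725 normalized counts in double-KO and 338, 328 and 347 in Mll2-KO libraries (1.17), and the feedback genes Axin2 (0.53), Nkd1 (0.81) and Notum (0.69) rose. The secreted antagonist Dkk1 had 68.3, 64.4 and 52.5 in double-KO and 158, 195 and 152 in Mll2-KO libraries (-1.43), and Sfrp2 (-1.18) fell with Sfrp5. Genes of the same kind went both ways. Among ligands Wnt11 (0.84) and Wnt7b (0.70) rose, whereas Wnt5a (-0.28) and Wnt5b (-0.57) fell. The transcription factor gene Tcf7 (0.38) rose and Tcf7l1 (-0.44) and Tcf7l2 (-0.45) fell. Of the receptor genes Fzd1 (0.44) rose and Fzd5 (-0.35) and Fzd7 (-0.11) fell, while the antagonist Sfrp1 rose by 0.14. Of 25 genes of Nodal, BMP and TGF-beta signalling, 8 rose and 10 fell: Tgfb1 (0.83) and Bmp7 (0.67) were higher, and Nodal (-0.70), its inhibitors Lefty1 (-0.67) and Lefty2 (-0.79), and Bmp2 (-0.63) lower. FGF and ERK genes rose in 7 and fell in 9 of 21 cases, where Klb, an FGF co-receptor, had 618, 668 and 627 in double-KO and 1580, 1580 and 1620 in Mll2-KO libraries (-1.32 ± 0.06, limma adjusted p = 7.6e-15). Of 20 Notch and Hedgehog genes 8 rose and 7 fell. Hhip, a Hedgehog binding protein, had 51.5, 59.8 and 42.2 in double-KO and 148, 141 and 125 in Mll2-KO libraries (-1.43), and the ligands Shh (-0.84) and Ihh (-0.90) and the effector Gli1 (-0.91) fell too, while the effectors Gli2 (0.33) and Gli3 (0.52) and the transducer Smo (0.20) rose.

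Interferon-stimulated genes rose in 17 and fell in 1 of 24 cases, with a median of 0.45. Ifit1 (chromosome 19, 34640871 to 34650009), which binds viral RNA, had 62.7, 41.4 and 55.9 normalized counts in double-KO and 13.7, 12.2 and 17.5 in Mll2-KO libraries (1.81 ± 0.21, limma adjusted p = 1.3e-07). Its neighbour Ifit3 had 51.5, 35.3 and 35.4 in double-KO and 9.80, 10.2 and 10.9 in Mll2-KO libraries (1.86), and Rsad2, the antiviral viperin gene, 103, 52.1 and 62.7 in double-KO and 19.6, 26.5 and 19.6 in Mll2-KO libraries (1.64). The 3 genes did not overlap between groups and were low in both. Isg15, a ubiquitin-like modifier, had 22.4, 12.3 and 25.1 in double-KO and 10.8, 7.13 and 10.9 in Mll2-KO libraries (0.94, limma adjusted p = 0.02). Psmb8, an immunoproteasome subunit, was the member that fell, with 4.48, 0 and 2.28 in double-KO and 6.86, 6.11 and 5.46 in Mll2-KO libraries, a call not made by edgeR or DESeq2. The list stood at a mean log2 level of 6.78, 6.47 and 6.66 in double-KO and 6.01 (5.93 to 6.08) in Mll2-KO libraries.

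Promoters of 4 members that rose are printed because they share a motif. The core of the interferon-stimulated response element, written here as GAAA, any 2 bases and GAAA again, was searched on both strands after the counts of the list were known. Matches are in capitals, and one on the other strand reads TTTC, any 2 bases and TTTC. The RefSeq windows on GRCm38.p6 are chr19:34640639-34640938 (plus), chr19:34583279-34583578 (plus), chr12:26456403-26456702 (minus) and chr4:156200769-156201068 (minus), printed 5′ to 3′ on the strand of the gene.
Ifit1: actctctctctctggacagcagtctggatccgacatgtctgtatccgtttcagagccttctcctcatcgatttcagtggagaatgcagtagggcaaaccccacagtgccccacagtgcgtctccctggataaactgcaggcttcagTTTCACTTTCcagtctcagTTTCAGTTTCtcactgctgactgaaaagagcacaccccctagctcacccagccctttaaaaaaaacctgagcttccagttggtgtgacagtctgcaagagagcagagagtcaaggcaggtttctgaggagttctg
Ifit3: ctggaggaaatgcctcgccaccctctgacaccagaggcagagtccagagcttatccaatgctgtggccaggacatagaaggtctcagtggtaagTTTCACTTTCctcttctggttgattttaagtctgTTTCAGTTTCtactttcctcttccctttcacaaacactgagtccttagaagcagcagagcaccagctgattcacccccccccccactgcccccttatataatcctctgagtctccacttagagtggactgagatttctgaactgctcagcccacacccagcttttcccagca
Rsad2: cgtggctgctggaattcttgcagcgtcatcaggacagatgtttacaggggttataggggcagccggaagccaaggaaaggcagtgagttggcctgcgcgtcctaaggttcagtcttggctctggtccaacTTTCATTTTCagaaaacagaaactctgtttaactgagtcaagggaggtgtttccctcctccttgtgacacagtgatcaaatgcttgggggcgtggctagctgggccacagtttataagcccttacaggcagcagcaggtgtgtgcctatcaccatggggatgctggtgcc
Isg15: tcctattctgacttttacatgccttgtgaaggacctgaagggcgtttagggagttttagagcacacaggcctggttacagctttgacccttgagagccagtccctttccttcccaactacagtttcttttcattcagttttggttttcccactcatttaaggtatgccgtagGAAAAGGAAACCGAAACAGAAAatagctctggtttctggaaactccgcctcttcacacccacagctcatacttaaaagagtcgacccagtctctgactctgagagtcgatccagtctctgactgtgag
Ifit1 and Ifit3 each held 2 matches, Rsad2 held 1, and Isg15 held 3 that overlap in a single run. The motif was in 11 of 16 windows of the list (68.8%), beside 2.78% of all windows and 2.82% of the windows of genes that rose. It was in 6.62% of windows of genes that rose at least 2-fold and 5.19% of those that fell at least 2-fold. Within the list it did not follow the calls. Ifih1, B2m and Cxcl10 were not called and held it, while Oasl1, Oasl2, Tap1 and H2-D1 rose without it, and Psmb8, which fell, lacked it too. The other motif searched was the CArG box, a run of A or T between CC and GG. It was in 0 of 7 windows of immediate early genes and 1 of 8 of mesothelial and smooth muscle genes. Of genes that rose at least 2-fold 4.64% held it, and of those that fell at least 2-fold 1.42%, beside 1.35% of all windows. A match describes the letters of the window and is not a measured binding site.

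Immediate early genes, which respond within minutes to growth factors and to handling, rose in 8 of 10 cases (median 0.69). Fos had 401, 397 and 389 normalized counts in double-KO and 190, 201 and 207 in Mll2-KO libraries (0.99), and Egr1 had 1120, 1150 and 1210 in double-KO and 465, 481 and 576 in Mll2-KO libraries (1.20). The mean log2 level of the list was 8.44, 8.52 and 8.57 in double-KO and 7.79, 7.88 and 7.91 in Mll2-KO libraries, and the part of these genes in the other differences was not tested. Targets of p53 rose in 14 of 17 cases, with a median of 0.32. In both lists 0 fell by limma, also at an unadjusted p below 0.05, and 0 by edgeR or DESeq2. Cdkn1a, the p21 cell cycle inhibitor gene, had 6090, 6120 and 6230 in double-KO and 3780, 3620 and 4060 in Mll2-KO libraries (0.69 ± 0.05, limma adjusted p = 3.9e-11), and Fas, a death receptor gene, 97.4, 96.6 and 105 in double-KO and 49.0, 37.7 and 46.9 in Mll2-KO libraries (1.15). Plk2 had 5040, 5120 and 5030 in double-KO and 2750, 2480 and 3040 in Mll2-KO libraries (0.88), and Mdm2, the feedback inhibitor of p53, rose by 0.41. None of these named genes overlapped between the groups.

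Cell cycle genes fell in 19 and rose in 5 of 30 cases (median -0.21). The mitotic genes Aurkb (-0.50), Ccnb2 (-0.50), Top2a (-0.46) and Mki67 (-0.46) and the replication helicase genes Mcm2 (-0.22), Mcm5 (-0.23) and Mcm7 (-0.19) were lower. Ccnd1, the D1 cyclin gene, had 964, 872 and 879 normalized counts in double-KO and 486, 411 and 457 in Mll2-KO libraries (1.00 ± 0.07, limma adjusted p = 2e-11). Glycolysis and hypoxia genes fell in 12 and rose in 1 of 23 cases (median -0.19). The glucose transporter gene Slc2a3 had 15200, 15400 and 16300 in double-KO and 27500, 29200 and 27800 in Mll2-KO libraries (-0.85). Integrated stress response genes fell in 7 and rose in 3 of 13, with Trib3 (-0.61) and Asns (-0.45) lower, and cholesterol synthesis genes rose in 7 and fell in 5 of 24. DNA methylation genes fell in 6 and rose in 1 of 12, Tet1 by 0.57 and Dnmt3l by 0.53, and Polycomb genes fell in 7 and rose in 3 of 20, with Ezh1 (-0.77) and Epop (-0.81) lower and Ezh2 not called. Clustered protocadherins, many of which share exons, rose in 8 and fell in 1 of 30, germline genes rose in 8 and fell in 3 of 18, and 2-cell-like genes, which include near-identical copies, rose in 4 and fell in 1 of 13.

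The same deletion in cells with MLL2, day 4 Mll1-KO against WT, shares no library with the comparison above, although these 2 groups were without 4-OHT. There 5120 genes were called (35.8%), 2367 higher (16.5%) and 2753 lower (19.2%), or 3137 and 2063 with scaling to column totals. Of the 2780 genes higher in double-KO against Mll2-KO, 1382 were also higher in Mll1-KO against WT, which is 49.7% of the first list and 58.4% of the second, and 91 were lower (3.27%). Of the 2990 lower genes, 1545 were also lower there (51.7% of the first list, 56.1% of the second) and 81 were higher (2.71%). H19 averaged 547 ± 9.19 normalized counts in Mll1-KO and 11200 ± 834 in WT cells, and its fall was called in both backgrounds, as were those of Pou5f1 (313 ± 50.4 in Mll1-KO, 958 ± 130 in WT) and Foxq1 (518 ± 17.2 in Mll1-KO, 1260 ± 106 in WT). In Mll1-KO against WT, visceral endoderm genes fell in 17 of 19 cases (median -1.11), naive and core pluripotency genes in 20 of 22 (median -0.79), and interferon-stimulated genes rose in 16 of 24 (median 0.46).

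Whether the loss of MLL1 had a different effect without MLL2 was tested gene by gene as the difference of both differences. This non-additivity was called for 1951 genes (13.6%), 1085 with a higher (7.59%) and 866 with a lower (6.05%) difference without MLL2, and loss of MLL2 cannot be told apart from 4-OHT in it. Without the second day 4 Mll2-KO library these counts were 704 and 565. With scaling to column totals they were 931 and 991, so which direction held more genes depended on the scaling. Entpd3 averaged 52.2 ± 18.2 normalized counts in double-KO, 11.1 ± 3.73 in Mll2-KO, 32.0 ± 10.2 in Mll1-KO and 50.9 ± 4.77 in WT cells (non-additivity 2.82, limma adjusted p = 3.2e-05). Muc13, an epithelial mucin gene, had 259, 238 and 228 in double-KO, 172, 146 and 157 in Mll2-KO, and averaged 43.2 ± 17.7 in Mll1-KO and 121 ± 8.76 in WT cells (2.16, limma adjusted p = 6e-06). Both means were higher in double-KO than in Mll2-KO cells, and lower in Mll1-KO than in WT cells. Bicd1 had 28.0, 15.3 and 22.8 in double-KO and 76.4, 92.7 and 74.2 in Mll2-KO libraries, and averaged 417 ± 22.0 in Mll1-KO and 365 ± 53 in WT cells (-2.07, limma adjusted p = 1.4e-06). Mef2c (-2.37) and Susd5, a sushi-domain gene (-2.61), followed the same pattern, with Susd5 at 2.24, 0 and 3.42 in double-KO, 16.7, 14.3 and 8.73 in Mll2-KO, and means of 57.8 ± 15.5 in Mll1-KO and 53 ± 6.64 in WT cells.

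Gene groups differed in this respect. Of 17 mesothelial and smooth muscle genes, 9 had a higher and 2 a lower difference without MLL2: Actg2 averaged 83.6 ± 13.2 in Mll1-KO and 65.8 ± 8.52 in WT cells (non-additivity 1.56, limma adjusted p = 0.00057), and Acta2 averaged 12400 ± 1750 in Mll1-KO and 12900 ± 1190 in WT cells (0.96, limma adjusted p = 6.4e-06). Upk3b, by contrast, averaged 211 ± 6.80 in Mll1-KO and 61.4 ± 10.7 in WT cells, and its non-additivity was not called (0.49, limma adjusted p = 0.38). Of 11 surface epithelium genes, 8 fell in Mll1-KO against WT, and 9 had a called positive non-additivity, with Cldn4 at 2300 ± 252 in Mll1-KO and 2510 ± 165 in WT cells (0.93, limma adjusted p = 6.7e-08). The 2-cell-like genes fell in 10 of 13 cases in Mll1-KO against WT (median -1.09), and 8 had a called positive non-additivity. The mean log2 level of that list was 3.90, 3.52 and 3.64 in double-KO and 3.68, 3.37 and 3.50 in Mll2-KO libraries, and 5.34, 5.68 and 5.26 in Mll1-KO and 6.61, 7.15 and 6.88 in WT libraries, so it was already low in the Mll2-KO. Xist rose in both pairs and by more without MLL2 (1.34, limma adjusted p = 0.00075), and H19 fell in both and by less without MLL2 (0.78, limma adjusted p = 2e-07). Hoxa9 and Hoxa10 fell in both pairs, whereas Hoxa7 (-0.35, limma adjusted p = 0.11) and Hoxa13 (-0.33, limma adjusted p = 0.51) were not called in Mll1-KO against WT. Hoxa9 stood at 46.5 ± 2.55 in Mll1-KO and 121 ± 15.3 in WT cells, and its non-additivity of -0.92 missed the threshold (limma adjusted p = 0.066). So did that of Hoxa13 (-1.43, limma adjusted p = 0.059) and Hoxa10 (-0.21, limma adjusted p = 0.73), while that of Hoxa7 was called (-0.85, limma adjusted p = 0.017).

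**Figure D4:**
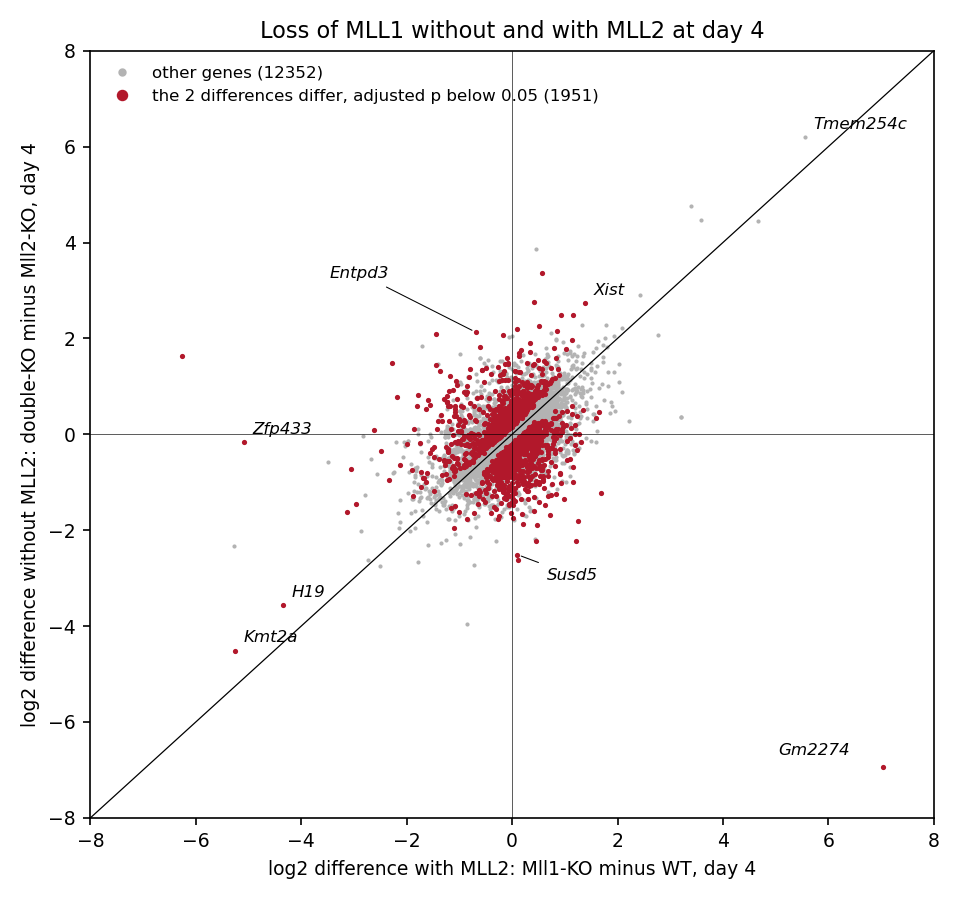
Log2 difference for loss of MLL1 without MLL2 (double-KO minus Mll2-KO, vertical axis) against that with MLL2 (Mll1-KO minus WT, horizontal axis) at day 4, with a point per tested gene and the line of equal differences; the 1951 red genes differ between both axes by limma. Kmt2a, H19 and Tmem254c lie far out near the line, and Gm2274, an unnamed gene model labelled after its values were seen, lies at the opposite corner, with 0 normalized counts in all double-KO and 117, 118 and 133 in Mll2-KO libraries.

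Loss of MLL1 without MLL2 was also measured in stem cells at day 0, in other libraries. Of 2554 genes higher at day 4 and tested on both days, 721 were also higher at day 0, which is 28.2% of the day 4 list and 22.8% of the day 0 list, beside 23.9% of all genes tested on both days, and 549 (21.5%) were lower. Of 2835 lower genes, 1045 were also lower at day 0 (36.9% of the day 4 list, 31.9% of the day 0 list, beside 24.8% of all genes) and 555 (19.6%) were higher. The change of the difference from day 0 to day 4 was called for 5814 of 15114 genes (38.5%), 2835 higher (18.8%) and 2979 lower (19.7%), or 3604 and 2067 with scaling to column totals. Ina averaged 1110 ± 79.6 normalized counts in double-KO and 176 ± 7.26 in Mll2-KO cells at day 0, and 20.6 ± 2.68 and 44.5 ± 2.94 at day 4, so its direction turned (-3.73 for the change). Lefty2 turned as well, with 296 ± 52.2 in double-KO and 58.1 ± 12.0 in Mll2-KO cells at day 0 and 90.6 ± 8.28 and 158 ± 23.9 at day 4 (-3.12), and Entpd3 turned upward, with 9.71 ± 2.56 in double-KO and 43.1 ± 5.70 in Mll2-KO cells at day 0 (4.19). H19 kept its direction, with 7.69 ± 0.759 in double-KO and 152 ± 12.9 in Mll2-KO cells at day 0. Dkk2 and Afp were listed at 0 in all day 0 libraries of both genotypes, and Hoxa9 stood at 0.287 ± 0.496 in double-KO and 4.28 ± 3.65 in Mll2-KO cells at day 0.

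**Figure D5:**
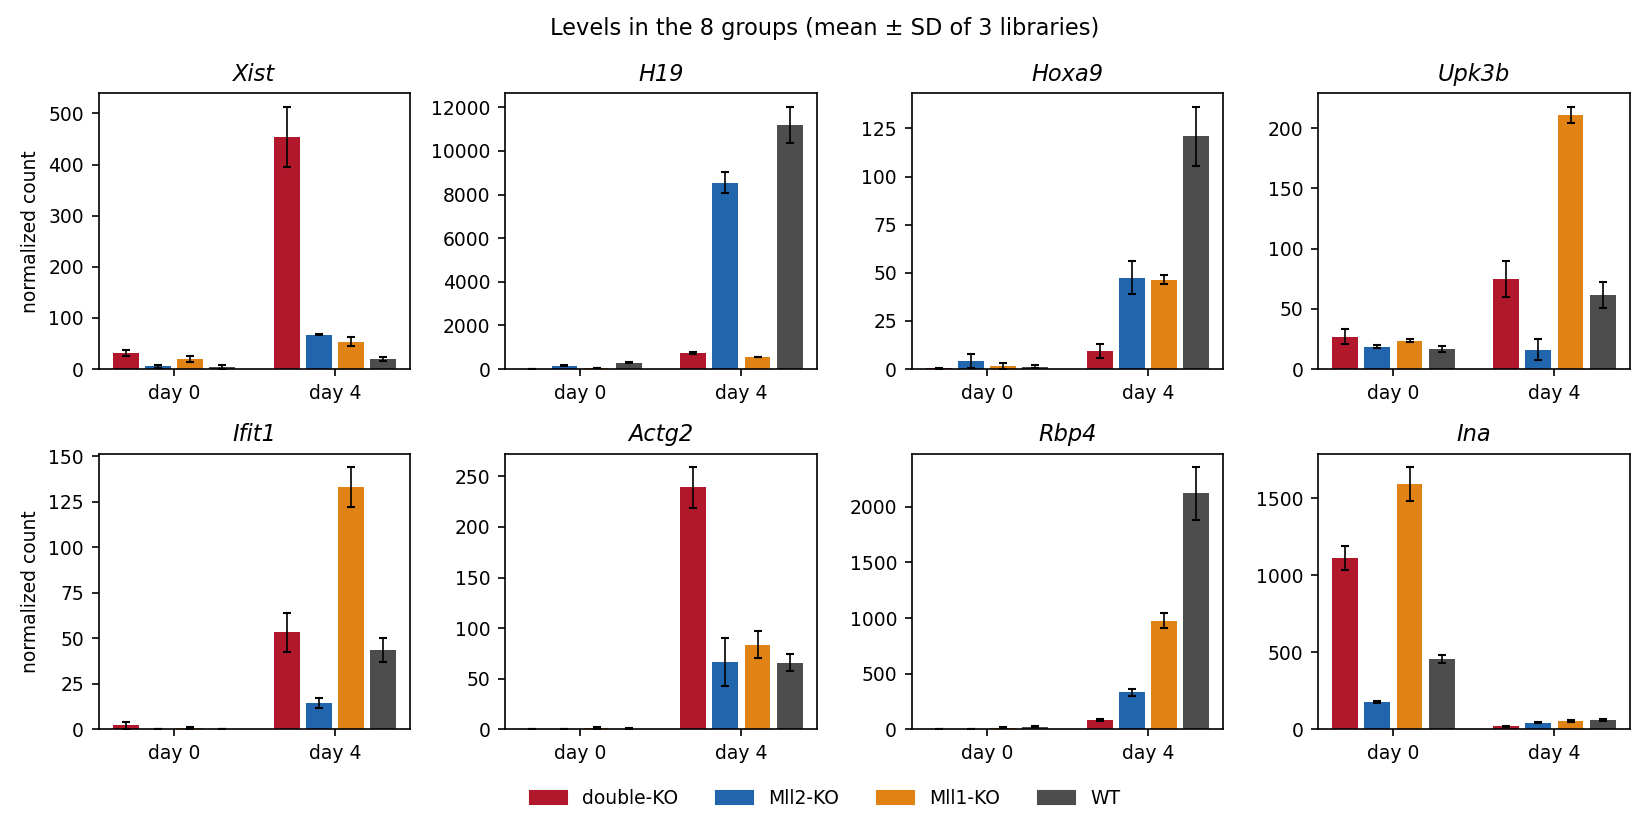
Mean normalized count ± SD (n = 3 libraries) of 8 genes on day 0 and day 4, in double-KO, Mll2-KO, Mll1-KO and WT cells from left to right, each panel with its own axis from 0. Xist and Actg2 are highest in day 4 double-KO cells (454 for Xist), H19 is low in both genotypes without MLL1 on both days, and Ina falls to a low level by day 4 in all genotypes.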

How the data were processed

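Polyadenylated RNA was sequenced from stranded TruSeq libraries, per the labels' protocols. The build mm10 and, among others, STAR 2.7.10a, RSEM 1.3.1 and DESeq2 1.34.0 are named, per the submitters' processing notes. The annotation and the use of strand were not given in the sources used here. The deposited signal values are gene counts that the authors divided by 1 size factor per library, as read from the values. Undoing that division gave whole reads for 100% of values (tolerance 1e-06), which went into count models as alternatives.

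The main test was limma 3.58.1 (R 4.3.3, trend) on log2(normalized count + 1). Genes needed 10 or more normalized counts in 3 or more libraries. The fit held the 12 day 4 libraries, or all 24 for changes between days. Calls used a Benjamini-Hochberg adjusted p below 0.05 over all genes tested. Tried beside it were a pseudocount of 0.5 or 5, no filter, a filter at 50, other scalings, other fits, a replicate block, edgeR 4.0.16 quasi-likelihood, DESeq2 1.42.0 and leaving out each library.

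The members and lists were chosen with earlier results of these data known. Named by rule were Kmt2a and Kmt2b, the 15 largest called rises and falls whose libraries did not overlap and whose higher mean reached 50, all tested Hox genes, up to 2 rises and 2 falls per list, and 5 each way for non-additivity and the change between days. Other list members, Kmt2d, Tsix, Gm2274 and the motifs were picked after values were seen. A few genes that the rule or the lists would name are not reported here. Chi-square per degree of freedom between replicates was 1.85 to 3.47, so none was a repeat of another. Positions are from GENCODE release M21 (97.1% of genes matched once).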

Additional observations from a re-analysis of the deposited data

Results flagged for a closer look

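For each gene here the difference between double-KO and Mll2-KO cells was itself different in another pair of groups, by limma on the difference of both differences. At day 4 the contrast with Mll1-KO against WT gave 1085 genes with a higher and 866 with a lower difference without MLL2. With scaling to column totals these counts were 931 and 991. By the naming rule the highest were Zfp433 (4.92), Entpd3 (2.82), Tmprss11f (2.25), Usp17le (2.19) and Muc13 (2.16), and the lowest Susd5 (-2.61), Mef2c (-2.37), Gbp7 (-2.32), H2-M3 (-2.10) and Bicd1 (-2.07), where H2-M3 lost its call under some alternatives. Zfp433, a zinc finger gene, had 114, 82.8 and 35.4 normalized counts in double-KO and 146, 81.5 and 39.3 in Mll2-KO libraries, and averaged 0 in Mll1-KO and 63.7 ± 83.3 in WT cells, so libraries of a group differed widely. Usp17le is a gene with near-identical copies. Gbp7, a guanylate-binding protein gene induced by interferon, averaged 4.52 ± 3.35 in double-KO, 11.0 ± 1.22 in Mll2-KO, 96.8 ± 10.8 in Mll1-KO and 49.1 ± 11.3 in WT cells, and H2-M3, a class I histocompatibility gene, 1.87 ± 2.33, 5.03 ± 3.42, 113 ± 16.6 and 62.9 ± 11.0 in the same order. Both were thus scarce in both 4-OHT treated genotypes.

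Among the genes with the largest changes, the rise was larger without MLL2 for Xist (1.34), Dkk2 (1.34), Inhba (1.29), Ppbp (0.82), Actg2 (1.56), Lamb3 (1.01) and Naaladl2 (0.75). The fall was deeper without MLL2 for Rbp4 (-0.84), Sfrp5 (-0.91) and Ntrk2 (-1.45), and shallower for Kmt2a (0.75) and H19 (0.78).

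Between days, 2835 genes had a higher and 2979 a lower difference at day 4 than at day 0. The largest changes upward were in Eif3j1 (9.72), Amd1 (6.91), Tmem254c (5.77), Entpd3 (4.19) and Xlr3a (4.15), of which all but Entpd3 have near-identical copies. Eif3j1 had no reads in either group at day 4, and averaged 0.561 ± 0.972 in double-KO and 1280 ± 581 in Mll2-KO cells at day 0, so its value comes from day 0 and is no bound, and its call and that of Tmem254c were lost under some alternatives. The largest changes downward were in Ina (-3.73), Msc (-3.69), Frem1 (-3.18), Mup6 (-3.18) and Lefty2 (-3.12). Msc, a basic helix-loop-helix factor, averaged 278 ± 24.7 in double-KO and 49.8 ± 4.97 in Mll2-KO cells at day 0, and 6.96 ± 3.30 and 17.6 ± 7.67 at day 4. Frem1, an extracellular matrix gene, averaged 14.1 ± 2.05 in double-KO and 2.76 ± 0.711 in Mll2-KO cells at day 0, and 22.0 ± 2.61 and 51.3 ± 11.1 at day 4.

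Of the genes with the largest rises at day 4, the difference was higher than at day 0 for Dkk2 (2.49), Upk3b (1.78), Inhba (1.86), Msln (2.22), Ppbp (2.55), Actg2 (1.90), Lamb3 (2.15) and Naaladl2 (2.06). Of those with the largest falls it was lower at day 4 for Afp (-2.01), Bicd1 (-2.05) and Ntrk2 (-1.57), and higher for Kmt2a (1.01), H19 (0.57), Ctsh (1.62) and Amn (1.11).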

How the results depend on the processing

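Alternatives were run on the 168 genes named by rule, and none of these that was called changed direction. For double-KO against Mll2-KO, 2649 of 2834 values of these genes under 17 alternatives kept their side of the threshold, 176 were no longer called and 9 became called. Leaving out single libraries gave 2319 to 2542 higher and 2478 to 2782 lower genes there, 704 to 1163 and 565 to 929 for non-additivity, 2558 to 2757 and 2706 to 3013 for the change between days, 1850 to 2171 and 2146 to 2498 for Mll1-KO against WT, and 2845 to 3240 and 2967 to 3274 for day 0. For non-additivity the lowest counts, 704 and 565, were those without the second day 4 Mll2-KO library, and the cause was not tested. Scaling to column totals gave 3179 higher and 2563 lower genes, against 2988 and 2742 by edgeR and 2460 and 2552 by DESeq2, and at day 0 it gave 2565 and 4170. With all 24 libraries in the fit, 2106 genes were higher and 2560 lower in double-KO against Mll2-KO, the fewest higher genes of any setting. The fit with the replicate number as a block gave 2729 higher and 2916 lower genes, 1005 and 795 for non-additivity, and 2320 and 2665 for Mll1-KO against WT. At day 0 it gave 3338 and 3480, against 3266 and 3401 without the block. Between day 4 double-KO and Mll2-KO, same-numbered libraries did not deviate together (r of -0.007, 0.016 and 0.024). Other groups were not compared in this way, so whether the numbers mark shared cultures or batches is not settled. The calls of Olig2, Otx2, Tnnt2, Psmb8 and Ankrd37, whose means in double-KO and Mll2-KO cells were at most 22.1 normalized counts, were among those lost under some alternatives, and the part of depth in this was not tested.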
